A study of Mus musculus with 14 samples.

Results

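The MHC class I presentation genes described here are 10 of the 24100 genes in the deposited table: the light chain gene B2m, 6 heavy chain genes (H2-K1, H2-D1, H2-Q4, H2-T10, H2-T22 and H2-T23) and 3 genes of peptide loading (Tap1, Tap2 and Tapbp). They were taken by name. The set was chosen by the measured levels of B2m and H2-T10, which varied with fraction, with genotype and with haplotype-like levels across libraries. Both are therefore described without a test, and tests are read only for the other 8 genes, from models fitted across all genes. The libraries lowest in H2-T10 within each fraction were the highest in H2-T22 and H2-T23, and H2-T22 shares transcript sequence with H2-T10. Genotype tests of H2-T22 and H2-T23 are therefore not free of that choice. All 10 genes passed the filter on low counts in each comparison.

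The libraries come from cerebellum of mice at postnatal day 21, wild type (WT) or knockout (KO) for Astn2, a gene for a neuronal membrane protein of the astrotactin family. All mice carried Tg(Pcp2-Egfp-L10a), in which the Pcp2 promoter drives an EGFP-tagged ribosomal protein in Purkinje cells, the output neurons of the cerebellar cortex. Translating ribosome affinity purification (TRAP) recovers RNA on tagged ribosomes, and the input is homogenate of whole cerebellum set aside before the purification. There were 4 TRAP KO libraries, 3 TRAP WT, 3 input KO and 4 input WT, with females and males in each group and WT and KO mice being littermates per the labels. Replicate 1 was the only female of input WT and of TRAP WT, and replicate 3 the only male of input KO. With sex as a covariate, a genotype fit without such a library compares the genotypes within a single sex. The strain background and which libraries came from the same animal are not given in the sources used here, so p-values measure the spread between these libraries, which may be technical.

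MHC class I proteins carry peptides made inside a cell to its surface. A heavy chain folds with B2m in the endoplasmic reticulum, the Tap1 and Tap2 subunits form the transporter that brings in peptides cut by the proteasome, and tapasin, the product of Tapbp, bridges the transporter and the empty class I molecule. T cells and natural killer cells read the complexes. Neurons, Purkinje cells included, also express class I genes, which have been linked to synaptic plasticity.

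Library totals ranged from 18.8 to 54.2 M counts. Astn2 ranged from 88.8 to 104 CPM (counts per 1000000 counts, scaled by TMM factors here and below) in input WT and from 0.73 to 0.97 CPM in input KO, and from 117 to 146 CPM in TRAP WT and 1.06 to 2.11 CPM in TRAP KO, so every library matched its genotype label. The summed CPM of 10 Purkinje markers was 66924 to 81413 in TRAP and 5493 to 6513 in input, and all 10 were higher in TRAP in both genotypes. TRAP libraries retained markers of other cells: microglia markers summed to 17.8 to 26.9 CPM in TRAP against 38.8 to 69.5 CPM in input, and endothelium markers to 6.68 to 14.7 against 17.5 to 38.5 CPM. None of the 10 markers of either list was at 0 in a whole group, and the most abundant for endothelium were Cldn5 and Slco1a4. Blood and lymphoid markers, led by the globin genes Hba-a2 and Hbb-bs, ranged from 107 to 9379 CPM, with the lymphoid genes Nkg7 and Cd3e at 0 in all TRAP libraries. The 6 choroid plexus markers summed to 3.94, 5.37 and 1138 CPM in input KO, 4.04 to 384 CPM in input WT, 4.17 to 104.8 CPM in TRAP WT and 3.10 to 3.87 CPM in TRAP KO. Since these are bulk samples, fewer cells of a type and less RNA per cell cannot be told apart.

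In the RefSeq annotation of GRCm38.p6, B2m lies on chromosome 2 (122147687 to 122153082) and the other 9 genes on chromosome 17, from Tapbp (33919478 to 33929290) past H2-K1 (33996012 to 34000619), Tap1 (34187556 to 34197225), Tap2 (34204479 to 34216321), H2-D1 (35263094 to 35267497), H2-Q4 (35379617 to 35384674), H2-T23 (36029977 to 36032701) and H2-T22 (36037128 to 36042742) to H2-T10 (36115871 to 36121444). H2-T10 is annotated there as a transcribed pseudogene and the others as protein coding. The heavy chain genes resemble each other in sequence. Of the distinct 31-base words in its annotated transcripts, H2-T22 shared 51.0% with other genes, H2-T10 50.7%, H2-Q4 38.4%, H2-D1 26.7%, H2-T23 24.5% and H2-K1 22.8%, while B2m shared 0. H2-T10 and H2-T22 were each other's closest partner, with 47.6% of the words of H2-T10 found in H2-T22. Reads from such stretches can be assigned to either gene, so the levels of these heavy chains are uncertain to that extent. Several genes also overlap others on the opposite strand (Patl2 with B2m, Psmb9 with Tap1, the long noncoding RNA A930015D03Rik with H2-T22 and H2-T23), and without a stated strand setting their reads cannot be told apart.

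Class I promoters hold a compact array of factor sites: an interferon-stimulated response element bound by interferon regulatory factors, a kappa B site bound by NF-kappa B proteins, and an X2 box and a Y box bound by CREB-type and NF-Y proteins. The stretches before the starts of B2m and H2-T22 are shown because the genotype differences of these genes in TRAP had opposite signs. They come from RefSeq (GRCm38.p6), leave out annotated exons, and have matches, on either strand, in capitals: the interferon-stimulated response element core (GAAA, any 2 bases, GAAA), the kappa B core (GGG, any 5 bases, CC), the X2 core (TGACG) and the Y box (CCAAT). Neighbouring kappa B matches overlap by all but 1 base.
B2m, chr2:122147437-122147685, plus strand: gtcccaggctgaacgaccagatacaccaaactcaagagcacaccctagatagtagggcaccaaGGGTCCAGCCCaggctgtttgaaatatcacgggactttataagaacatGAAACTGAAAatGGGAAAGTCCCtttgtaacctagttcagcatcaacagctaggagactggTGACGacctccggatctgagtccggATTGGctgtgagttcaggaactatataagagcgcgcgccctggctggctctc
H2-T22, chr17:36042748-36042960, minus strand: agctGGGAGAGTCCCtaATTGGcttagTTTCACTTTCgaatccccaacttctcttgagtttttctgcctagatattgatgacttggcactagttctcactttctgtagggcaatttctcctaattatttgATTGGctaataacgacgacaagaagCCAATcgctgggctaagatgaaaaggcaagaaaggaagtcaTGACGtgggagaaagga

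Promoters were found for 8 of the 10 genes, those of H2-T10 and Tap2 being the ones not in the table used. Within the 250 bases before the start, the interferon-stimulated response element core occurred in 3 of the 8 (B2m, H2-T22 and H2-T23) and in 3.04% of 27025 promoters. The X2 core occurred in 6 of the 8 and in 17.9% of all promoters, the kappa B core in 6 and 45.4%, and the Y box in 8 and 34.5%. Unlike the stretches shown, these windows were searched with annotated exons included. The windows of H2-D1, H2-Q4, Tap1 and Tapbp lay wholly within annotated exons. For H2-T23, 154 of the 250 bases did, and its response element match lay among them. These are matches of letters and do not show that a factor binds.

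B2m, the light chain that all these heavy chains need, was highest in TRAP KO when scaled by TMM factors. It measured 34.2, 38.1, 43.4 and 24.5 CPM in TRAP KO replicates 1 to 4 and 23.9, 18.4 and 15.1 CPM in TRAP WT replicates 1 to 3. In input it measured 16.1, 18.7 and 13.5 CPM in KO and 18.0, 16.9, 20.1 and 18.7 CPM in WT. The TRAP groups did not overlap, as for 1.8% of all genes with KO higher, although TRAP KO replicate 4 was only just above TRAP WT replicate 1, and the input groups overlapped. The mean was 35.0 ± 8.0 CPM (SD, n = 4) in TRAP KO and 19.1 ± 4.4 CPM (SD, n = 3) in TRAP WT, a fitted log2 fold change of 0.86 ± 0.23 (SE). Without TRAP KO replicate 3 it was 0.58. In input the log2 fold change was −0.29 ± 0.12 (SE). The log2 difference between TRAP and input was 0.01 ± 0.18 (SE) in WT and 1.16 ± 0.18 (SE) in KO.

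The B2m transcript is short, 860 bases, and TRAP libraries differed in how short transcripts were represented. Relative to the fraction's mean, the median log2 level of 518 genes with transcripts up to 1 kb was 0.33 in TRAP WT replicate 2, −0.26 in TRAP WT replicate 3, 0.14 in TRAP KO replicate 1 and −0.13 in TRAP KO replicate 4. TRAP WT replicate 3 and TRAP KO replicate 4, the lowest of their groups in B2m, were also the lowest by this measure, whereas its highest libraries, TRAP WT replicate 2 and TRAP KO replicate 1, were not the highest of their groups in B2m. With offsets for transcript length the TRAP genotype difference of B2m was 0.88 in log2, while the difference between TRAP and input became −0.67 in WT and 0.43 in KO.

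H2-T10, a heavy chain gene of the T region related to ligands of gamma delta T cells, varied widely within groups. In input WT replicates 1 to 4 it measured 1.52, 12.4, 13.2 and 0.88 CPM, and in input KO replicates 1 to 3 it measured 24.7, 13.5 and 25.5 CPM. In TRAP WT replicates 1 to 3 it measured 1.03, 42.0 and 41.9 CPM, and in TRAP KO replicates 1 to 4 it measured 71.8, 33.5, 36.5 and 68.9 CPM. Both input WT replicates 1 and 4 and TRAP WT replicate 1 were far below every other library of their fraction, while the 2 highest libraries in each fraction were KO. The low libraries rest on 52, 29 and 15 counts. The log2 fold change of KO against WT was 1.62 ± 0.97 (SE) in TRAP, where groups overlapped, and 2.19 ± 0.77 (SE) in input, where KO replicate 2 lay just above the highest WT library and 6.11% of all genes had KO above WT without overlap. Single libraries moved these values widely: the TRAP value was 0.36 without WT replicate 1, 2.77 without KO replicate 3 and 2.27 without KO replicate 4, and the input value was 1.46 without WT replicate 1 and 3.67 without KO replicate 3. The input value of 3.67 compares females only, with WT replicate 1 as the sole WT library. The input value of 1.46 compares males only, with KO replicate 3 as the sole KO library. Without sex as a covariate they were 0.90 in TRAP and 1.53 in input.

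H2-T22, whose protein is bound by some gamma delta T cell receptors, ran the other way. It measured 16.5, 5.52 and 8.17 CPM in TRAP WT replicates 1 to 3 and 1.13, 3.79, 5.28 and 1.11 CPM in TRAP KO replicates 1 to 4. In input it measured 6.96, 2.84, 2.27 and 5.81 CPM in WT and 0.69, 2.33 and 0.38 CPM in KO. The libraries highest in H2-T22 within each fraction were those lowest in H2-T10, and the reverse also held for input KO replicates 1 and 3 and TRAP KO replicates 1 and 4. The log2 fold change of KO against WT was −1.82 ± 0.60 (SE) in TRAP, with an edgeR adjusted p of 1.00, and −2.65 ± 0.54 (SE) in input, with an adjusted p of 0.162. TRAP groups did not overlap, as for 2.69% of all genes with KO lower, and input KO replicate 2 lay above input WT replicate 3. The TRAP value was −1.10 without WT replicate 1 and −2.68 without KO replicate 3, and the input value −3.27 without either KO replicate 2 or WT replicate 1 and −1.97 without sex as a covariate. Without input WT replicate 1 the fit compares males only, with KO replicate 3 as the sole KO library.

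H2-T23 encodes Qa-1, a nonclassical class I protein that presents leader peptides of other class I chains to natural killer cell receptors. It measured 7.45, 4.73 and 6.10 CPM in TRAP WT replicates 1 to 3 and 1.40, 3.97, 3.40 and 1.46 CPM in TRAP KO replicates 1 to 4. In input it measured 2.84, 1.49, 1.80 and 3.10 CPM in WT and 0.54, 1.43 and 0.38 CPM in KO. WT was above KO in each fraction without overlap, by a narrow margin in input. The log2 fold changes were −1.29 ± 0.41 (SE) in TRAP, with an edgeR adjusted p of 1.00, and −1.97 ± 0.45 (SE) in input, with an adjusted p of 0.186. Without input KO replicate 2, H2-T22 and H2-T23 passed in input, with edgeR adjusted p of 0.026 and 0.030. That library was the highest of input KO in both genes. H2-T10 made up 78.2% of its summed counts of H2-T10, H2-T22 and H2-T23, against 95.3 and 97.1% in input KO replicates 1 and 3. It also had the highest sum of choroid plexus markers, 1138 CPM. The part of either in this was not tested.

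**Figure D1:**
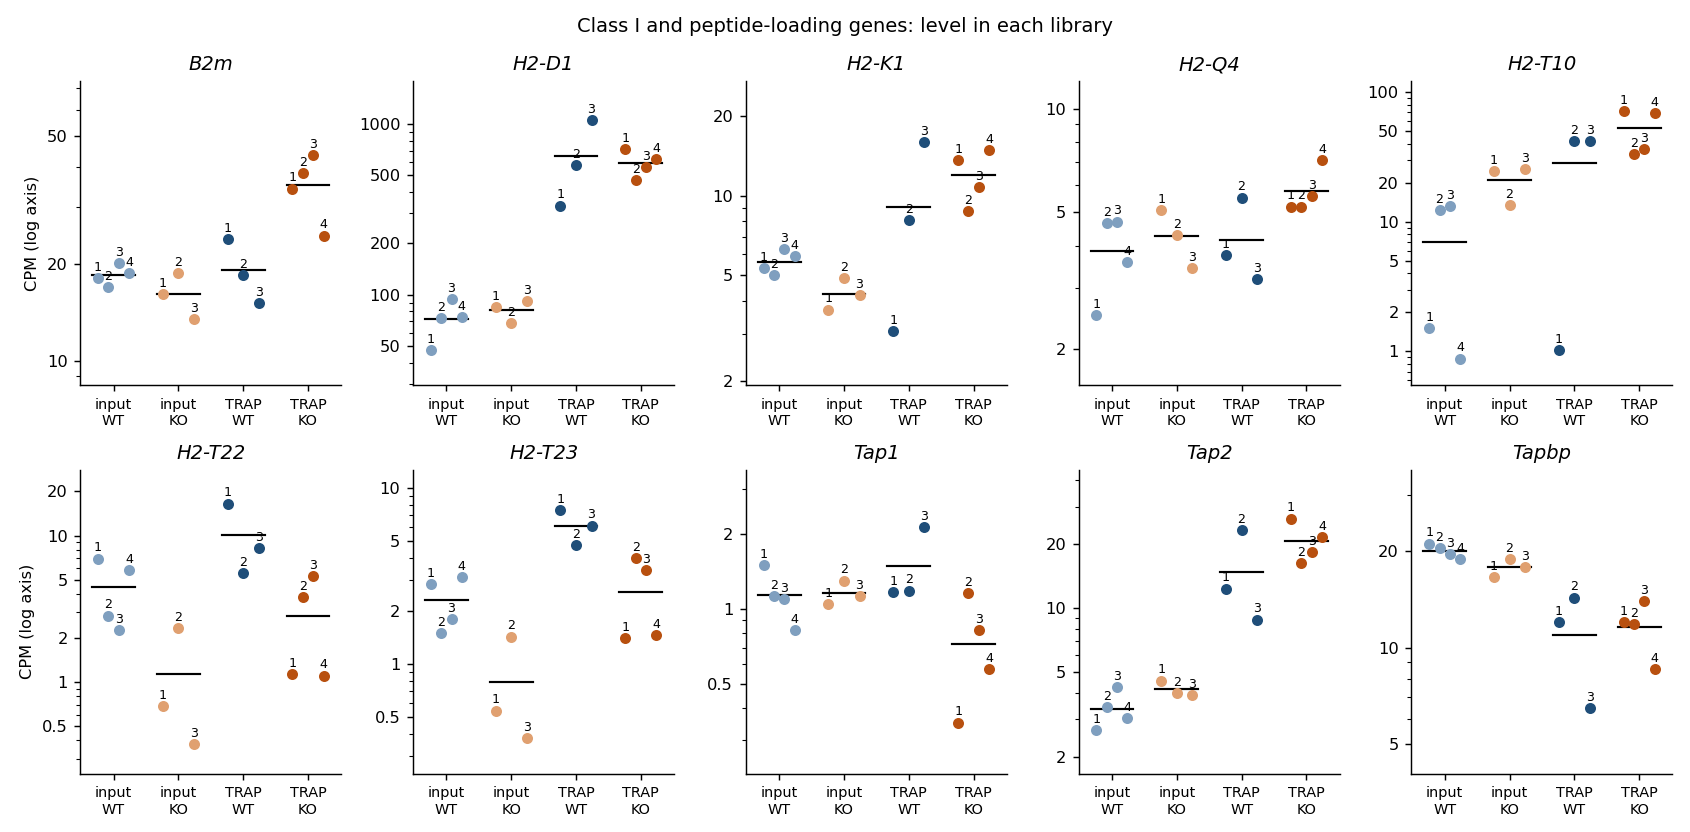
Level of each of the 10 genes in each library, in CPM on a log axis that differs between panels; points are libraries, numbers are replicate numbers and black lines are group means. H2-T10 was at 1.52 CPM or below in 3 WT libraries, which were the highest of their fraction in H2-T22.

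As a share of the summed counts of H2-T10, H2-T22 and H2-T23, H2-T10 took 3 ranges of values. It made up 13.4% in input WT replicate 1 (95% exact binomial interval 10.2 to 17.2%), 9.01% in input WT replicate 4 (6.11 to 12.7%) and 4.10% in TRAP WT replicate 1 (2.31 to 6.67%). In input KO replicate 2, input WT replicates 2 and 3, TRAP KO replicates 2 and 3 and TRAP WT replicates 2 and 3 it made up 74.1 to 81.2%. In input KO replicates 1 and 3 and TRAP KO replicates 1 and 4 it made up 95.3 to 97.1%. WT libraries thus held the low and middle values and KO libraries the middle and high values. Distinct levels across libraries were among the grounds for choosing the set, so the 3 ranges are a description and not a test. The intervals express counting error alone, because PCR copies cannot be recognised without molecular identifiers.

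**Figure D2:**
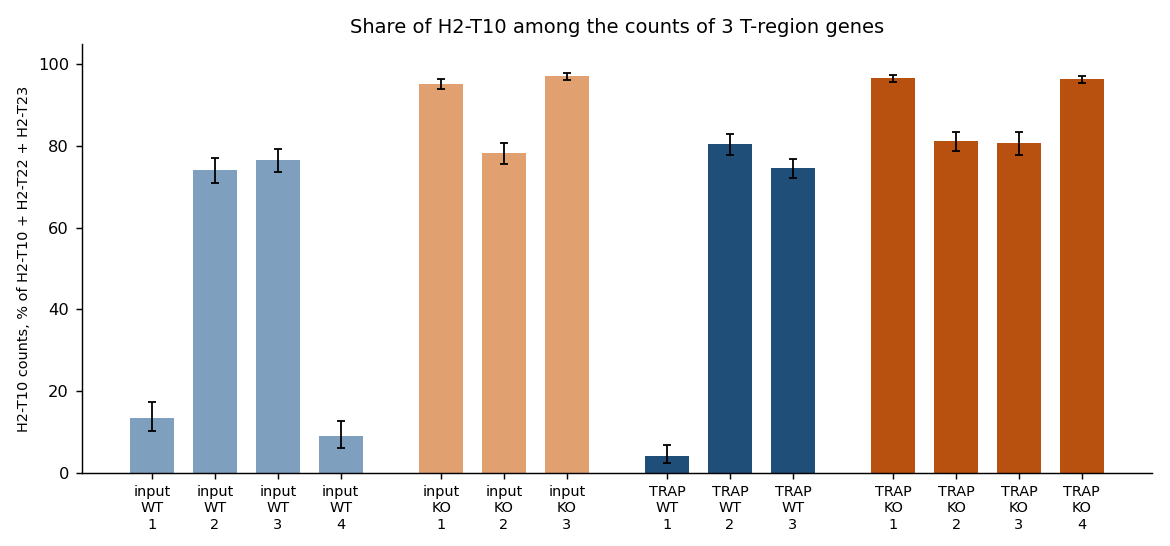
Counts of H2-T10 as a percentage of the counts of H2-T10, H2-T22 and H2-T23 in each library; bars are single libraries and error bars are 95% exact binomial intervals. The values lie at 4.10 to 13.4%, 74.1 to 81.2% and 95.3 to 97.1%.

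The genes most like H2-T10 were neighbours. Over the 14 libraries, with the mean of each fraction subtracted from log2(CPM + 1), the 5 genes of highest Pearson correlation with it among 12485 were A930015D03Rik (r = 0.97), the pseudogene Gm8801 (0.94), the heat shock gene Hspa1b (0.89), the ecto-nucleotidase gene Nt5e (0.89) and the class I pseudogene H2-Bl (0.87). All but Nt5e lie on chromosome 17, between Tapbp and H2-T10, where 82 of the ranked genes lie. Of all ranked genes, 4.78% were on that chromosome. The correlations are a description over libraries that share groups, and A930015D03Rik overlaps H2-T22 and H2-T23. Gm8801 ranged from 0.03 to 4.03 CPM in input WT and from 3.41 to 6.96 CPM in input KO, and had 0 counts in 1 TRAP WT library. A930015D03Rik, which lies on the strand opposite H2-T22, ranged from 4.03 to 18.8 CPM in TRAP WT and from 12.8 to 29.2 CPM in TRAP KO. Nt5e on chromosome 9 varied little, between 10.5 and 13.9 CPM over the TRAP libraries.

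**Figure D3:**
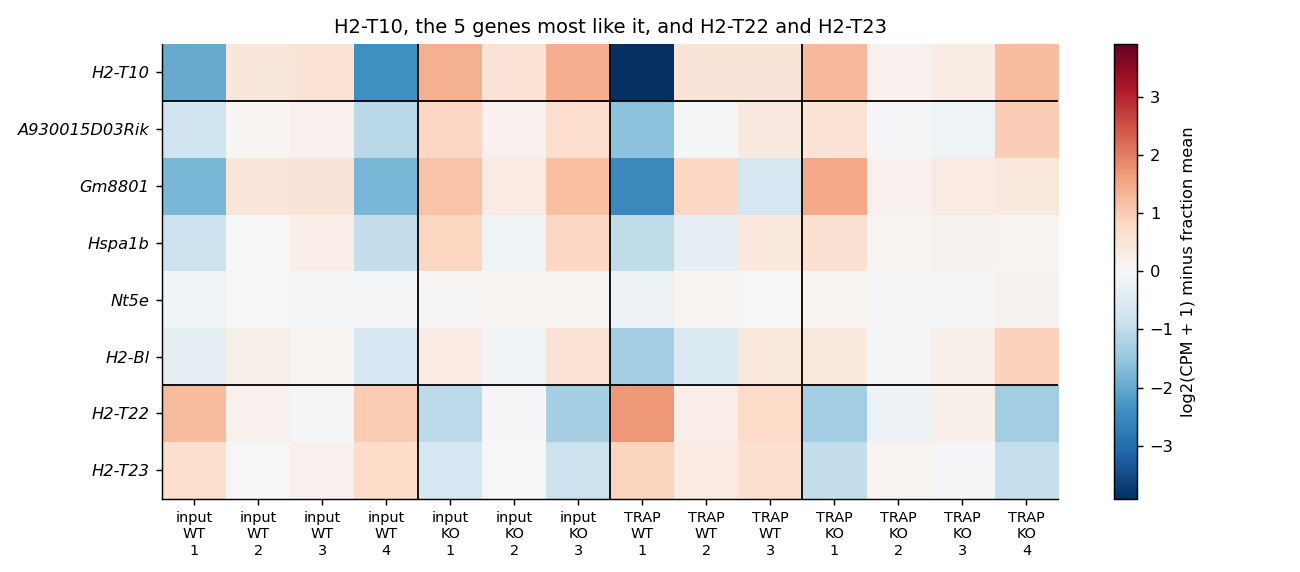
Level of H2-T10, of the 5 genes most like it and of H2-T22 and H2-T23 in each library, as log2(CPM + 1) minus the mean of the fraction (red above, blue below); vertical lines part the groups. Input WT replicates 1 and 4 and TRAP WT replicate 1 are low for H2-T10 and Gm8801 and high for H2-T22.

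The genes most like B2m were the microtubule-binding gene Clip1 (r = 0.90), Prrg3 (0.89), the folate enzyme gene Fpgs (0.88), the AMPA receptor auxiliary subunit gene Cacng8 (0.88) and the amino acid transporter gene Slc7a2 (0.88). None lies on chromosome 17. In contrast to B2m, all 5 were at lower CPM in every TRAP library than in every input library. Clip1 ranged from 40.2 to 47.9 CPM in TRAP WT and from 50.0 to 70.1 CPM in TRAP KO, without overlap.

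The span of chromosome 17 from Tapbp to H2-T10 holds 154 annotated genes. Without the members, 106 were tested in input and 88 in TRAP, and 0 passed in either by edgeR. In input, 27 of the 106 (25.5%) had an unadjusted p under 0.05, against 13.7% of all genes tested, and in TRAP 4 of 88 (4.55%) against 1.5%. With single libraries left out, the share in input lay between 14.8% without KO replicate 3, against 5.86% of all genes, and 33.9% without KO replicate 2, against 20.3%. In TRAP it lay between 2.15% without WT replicate 1, against 2.44% of all genes, and 14.1% without WT replicate 2, against 7.08%. The lowest unadjusted p values in input were those of Rgl2, the gene next to Tapbp, Hspa1l, Vwa7, Prrt1 and Abhd16a, all lower in KO. Rgl2, an exchange factor for Ral GTPases, measured 28.9 ± 2.5 CPM (SD, n = 4) in input WT and 22.2 ± 1.0 CPM (SD, n = 3) in input KO, a log2 fold change of −0.45 ± 0.06 (SE, edgeR adjusted p = 0.080). Hspa1l, a heat shock protein 70 gene, had −1.14 ± 0.19 (SE), with an edgeR adjusted p of 0.115. Span genes did pass in input in 3 alternatives: 8 of 106 (7.55%) by DESeq2, against 1.83% of all genes, 2 of 135 (1.48%) by edgeR with no filter on low counts, against 0.111%, and 7 of 109 (6.42%) by edgeR without KO replicate 2, against 0.982%. Hspa1l and Rgl2 passed in all 3. In TRAP the lowest were H2-Ab1, H2-K2, H2-Bl, Rgl2 and A930015D03Rik. H2-Ab1, a class II beta chain, measured 3.74 ± 2.78 CPM (SD, n = 3) in TRAP WT and 10.5 ± 3.9 CPM (SD, n = 4) in TRAP KO, with overlapping groups.

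H2-D1 and H2-K1 are the classical heavy chains, which present peptides to CD8 T cells. H2-D1 was the most abundant of the 10 genes per transcript length in both fractions. It measured 333, 576 and 1052 CPM in TRAP WT replicates 1 to 3 and 713, 468, 562 and 627 CPM in TRAP KO replicates 1 to 4. In input it measured 47.4, 72.8, 94.1 and 73.9 CPM in WT and 84.4, 68.1 and 91.9 CPM in KO. Every TRAP library exceeded every input library by a wide margin, and the genotypes overlapped in both fractions. TRAP exceeded input by 3.18 ± 0.27 (SE) in log2 in WT, with an edgeR adjusted p of 1.34e-07, and by 2.80 ± 0.29 (SE) in KO, with an adjusted p of 1.01e-06. The log2 fold change of KO against WT was 0.04 ± 0.34 (SE) in TRAP, with an edgeR adjusted p of 1.00, and 0.41 ± 0.16 (SE) in input, with an adjusted p of 0.313. H2-D1 made up 87.0 to 93.3% of the summed counts of the 6 heavy chains in TRAP and 70.9 to 79.3% in input.

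H2-K1 was lower. It measured 3.08, 8.05 and 15.9 CPM in TRAP WT replicates 1 to 3 and 13.6, 8.74, 10.7 and 14.9 CPM in TRAP KO replicates 1 to 4. In input it ranged from 4.99 to 6.26 CPM in WT and from 3.71 to 4.87 CPM in KO. TRAP WT replicate 1 was below every input WT library, whereas all TRAP KO libraries were above all input KO libraries. TRAP exceeded input by 1.41 ± 0.35 (SE) in log2 in KO, with an edgeR adjusted p of 0.0022, and by 0.66 ± 0.34 (SE) in WT, with an adjusted p of 0.089. The WT value was 1.08 without TRAP WT replicate 1, with an edgeR adjusted p of 0.0027, and 0.0075 without TRAP WT replicate 3, with an adjusted p of 0.982. Between genotypes the log2 fold change was −0.40 ± 0.15 (SE) in input, with an edgeR adjusted p of 0.307, and 0.70 ± 0.43 (SE) in TRAP, with an adjusted p of 1.00. The TRAP value was 0.12 without WT replicate 1 and 1.198 without WT replicate 3.

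H2-Q4, a nonclassical heavy chain of the Q region, ranged from 2.51 to 7.08 CPM over the 14 libraries. It measured from 2.51 to 4.70 CPM in input WT, 3.44 to 5.08 CPM in input KO, 3.19 to 5.52 CPM in TRAP WT and 5.19 to 7.08 CPM in TRAP KO, so that every TRAP KO library was above every input library. It passed in none of the comparisons, and TRAP against input was 0.12 ± 0.25 (SE) in log2 in WT and 0.38 ± 0.24 (SE) in KO, with edgeR adjusted p of 0.662 and 0.169. H2-T22 and H2-T23 had higher fitted levels in TRAP than in input in both genotypes, though not all of these differences passed. The input and TRAP groups held different mixes of the ranges of the H2-T10 share. The part of this in the fraction differences of H2-T10, H2-T22 and H2-T23 was not tested. H2-T23 was higher in TRAP by 1.36 ± 0.42 (SE) in log2 in WT and 1.83 ± 0.47 (SE) in KO, with edgeR adjusted p of 0.0087 and 0.0027, and the KO value was 2.47 without input KO replicate 2. H2-T22 was higher by 1.59 ± 0.66 (SE) in KO, with an edgeR adjusted p of 0.042, and by 1.06 ± 0.58 (SE) in WT, with an adjusted p of 0.108. The KO call for H2-T22 was lost when any of 7 single libraries was left out, with adjusted p up to 0.178 without input KO replicate 3. Its KO value was 0.91 without TRAP KO replicate 3 and 2.46 without input KO replicate 2. H2-T10 was higher in TRAP by 1.94 ± 0.81 (SE) in log2 in WT and 1.199 ± 0.808 (SE) in KO, the latter being 0.51 without TRAP KO replicate 1.

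The peptide transporter subunits differed. Tap2 measured 12.4, 23.4 and 8.83 CPM in TRAP WT replicates 1 to 3 and 26.4, 16.4, 18.4 and 21.6 CPM in TRAP KO replicates 1 to 4. In input it ranged from 2.66 to 4.25 CPM in WT and from 3.90 to 4.56 CPM in KO, so every TRAP library was above every input library. TRAP exceeded input by 2.15 ± 0.28 (SE) in log2 in WT, with an edgeR adjusted p of 1.01e-05, and by 2.30 ± 0.29 (SE) in KO, with an adjusted p of 8.20e-06. Tap1, its partner subunit, measured 1.16, 1.18 and 2.12 CPM in TRAP WT and 0.35, 1.16, 0.82 and 0.58 CPM in TRAP KO, and from 0.82 to 1.49 CPM over the input libraries. Its TRAP and input libraries overlapped in both genotypes, and TRAP against input was 0.42 ± 0.35 (SE) in log2 in WT and −0.65 ± 0.36 (SE) in KO, with edgeR adjusted p of 0.290 and 0.114. Without TRAP KO replicate 2 the KO difference was −1.09, with an edgeR adjusted p of 0.021. KO against WT was −0.997 ± 0.485 (SE) in log2 for Tap1 in TRAP, with an edgeR adjusted p of 1.00, and rests on 9 to 51 counts a library.

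Tapbp was lower in TRAP. It measured 12.03, 14.4 and 6.47 CPM in TRAP WT replicates 1 to 3 and 12.01, 11.8, 14.02 and 8.58 CPM in TRAP KO replicates 1 to 4. In input it ranged from 19.0 to 21.2 CPM in WT and from 16.6 to 19.0 CPM in KO. All TRAP libraries lay below all input libraries. TRAP was lower than input by a log2 change of −0.89 ± 0.22 (SE) in WT, with an edgeR adjusted p of 0.0022, and of −0.61 ± 0.21 (SE) in KO, with an adjusted p of 0.018. Without input KO replicate 3 the KO value was −0.56, with an edgeR adjusted p of 0.077, and without input KO replicate 2 it was −0.58, with an adjusted p of 0.050. The log2 genotype difference was −0.20 ± 0.07 (SE) in input, with an edgeR adjusted p of 0.273.

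Divided by transcript length in kb, mean levels in input WT ran from H2-D1 (34.3 CPM per kb) and B2m (21.4) through Tapbp (6.92), H2-K1 (3.00), H2-T10 (2.07), H2-Q4 (1.49), H2-T22 (1.46), Tap2 (0.97) and H2-T23 (0.87) to Tap1 (0.29). From H2-K1 to H2-T23, neighbours in this order differed by less than the larger of their SDs. In TRAP WT the order was H2-D1 (311 CPM per kb), B2m (22.2), H2-T10 (8.36), H2-K1 (4.81), Tap2 (4.32), Tapbp (3.78), H2-T22 (3.29), H2-T23 (2.31), H2-Q4 (1.601) and Tap1 (0.38). From H2-T10 to H2-T23, the same held. H2-D1 and B2m kept the first places, and Tap2 stood above Tapbp in TRAP WT and below it in input WT.

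Over the comparisons, few calls came from genotype and many from fraction. For KO against WT, 0 of the 8 tested members passed by edgeR in TRAP, where 0.00707% of 14145 genes passed, and 0 in input, where 0.0188% of 15997 passed. At an unadjusted p under 0.05 there were 2 of 8 in TRAP (1.5% of all genes) and 5 of 8 in input (13.7%), and DESeq2 called 0 in TRAP and 2 in input, H2-T22 and H2-T23. Both genes were highest where H2-T10, whose values helped choose the set, was lowest. Groups did not overlap for 3 of the 8 in TRAP, all lower in KO (H2-T22, H2-T23 and Tap1), against 2.69% of all genes in that direction. Tap1 was separated only by 1.162 against 1.158 CPM, and with library totals only H2-T23 of the 3 remained separated. In input the same count was 3 (H2-K1, H2-T23 and Tapbp), against 4.24%. Tapbp was separated only by 18.974 against 18.968 CPM and overlapped with library totals. For TRAP against input, 3 of the 8 rose and 1 fell in WT, where 37.0% of all genes rose and 38.5% fell, and 5 rose and 1 fell in KO, where 36.3% rose and 39.6% fell. Of all 16042 genes, 75.5% passed in WT and 75.9% in KO, so the members' shares, 4 and 6 of 8, were not above the background. The median log2 difference of the 8 was 0.86 in WT and 1.503 in KO, against −0.09 and −0.11 over all genes. Scaling by library totals in place of TMM factors shifted the all-gene median by −0.82 (WT) and −0.73 (KO). The 8 then gave 2 higher and 2 lower calls in WT, H2-T23 no longer passing and H2-Q4 being lower, and 3 higher and 2 lower in KO, H2-K1 and H2-T22 no longer passing and Tap1 being lower. The calls over all genes moved from 49.0% to 24.2% higher in WT and from 47.8% to 24.5% in KO. The interaction, which tests whether the genotype difference differs between fractions, called 0 of 8 members and 0.0% of 16042 genes by edgeR, with 0 of 8 and 2.68% at an unadjusted p under 0.05, and 0 members by DESeq2.

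**Figure D4:**
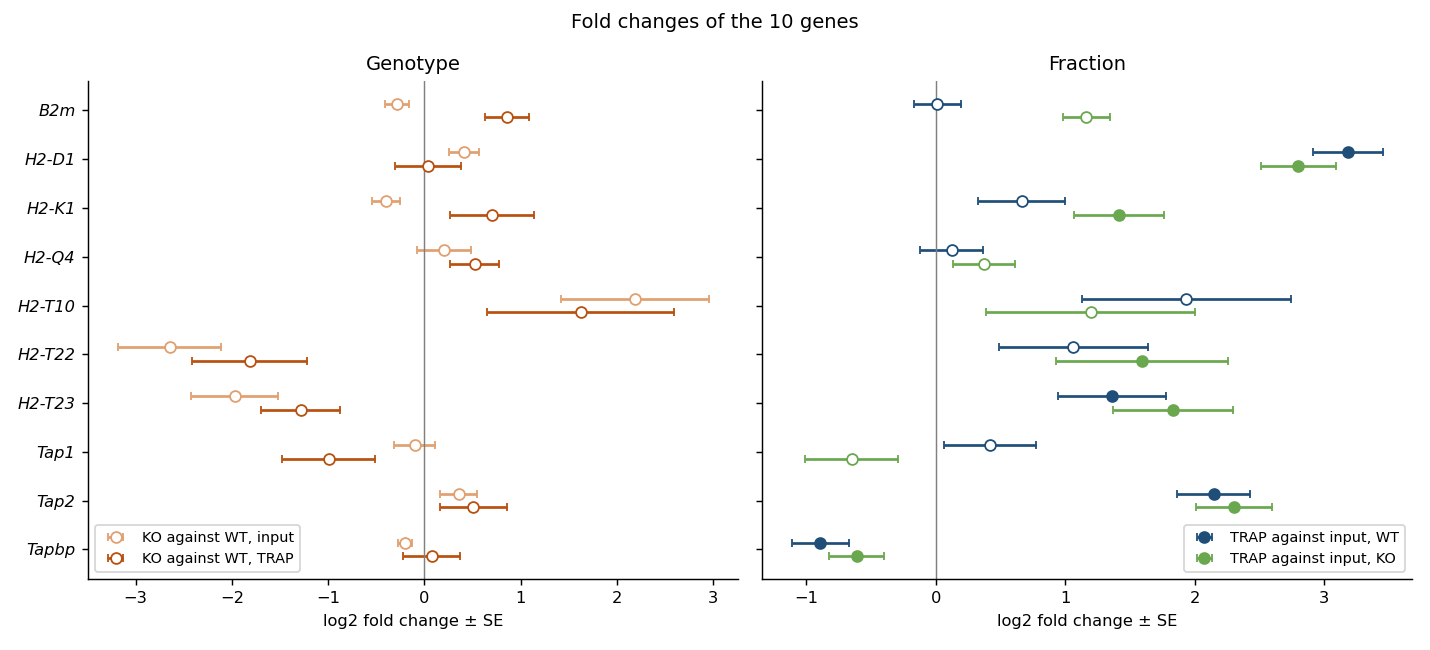
Log2 fold changes of the 10 genes with their SE, for genotype in each fraction (left) and for TRAP against input in each genotype (right); filled points have an adjusted p under 0.05, and B2m and H2-T10, which are described without a test, are always open. H2-D1 (3.18 in WT) and Tap2 (2.15 in WT) lie farthest to the right for fraction, and H2-T22 (−2.65 in input) farthest to the left for genotype.

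Of the other class I and class I-like genes, 12 of 20 were tested. In TRAP against input, 5 rose and 3 fell in WT and 4 rose and 4 fell in KO, 66.7% called in each. Of all genes, 37.0% rose and 38.5% fell in WT, 75.5% called. In KO 36.3% rose and 39.6% fell, 75.9% called. These shares are also the background for the lists that follow. H2-Q10 rose by 3.16 ± 0.82 (SE) in WT and 3.10 ± 0.74 (SE) in KO, at mean levels of 0.11 CPM in input WT and 1.06 CPM in TRAP WT. The genes that fell in both were Mr1, which presents vitamin metabolites to mucosal T cells, the neonatal Fc receptor gene Fcgrt and H2-T24. Mr1 had −1.999 ± 0.310 (SE) in WT and −2.39 ± 0.29 (SE) in KO. With library totals the counts of this list were 1 higher and 4 lower in WT and 1 higher and 5 lower in KO. Under that scaling 24.2% of the calls over all genes were higher in WT and 24.5% in KO. Without TRAP WT replicate 3, 5 passed in WT in place of 8. In the edgeR genotype comparisons 0 passed. At an unadjusted p under 0.05 there was 1 of 10 tested (10.0%) in TRAP, against 1.5% of all genes. In input there were 3 of 12 (25.0%), against 13.7%.

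The chaperones and peptide editors of the endoplasmic reticulum gave 3 higher and 2 lower of 10 in each genotype, 50.0% called, below the share over all genes. Sec61a1, the pore of the translocon, rose by 1.36 ± 0.16 (SE) in WT and 1.19 ± 0.17 (SE) in KO. Calr, the chaperone of the loading complex, rose by 1.10 ± 0.20 (SE) in WT and 0.62 ± 0.20 (SE) in KO. Tapbpl, a second peptide editor related to tapasin, fell, with −2.16 ± 0.44 (SE) in WT and −1.64 ± 0.39 (SE) in KO, as Tapbp did. With library totals the list gave 1 higher and 7 lower in each genotype. Without input KO replicate 1, 2 of the 10 passed in KO, and without TRAP KO replicate 2, 3 passed.

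Of 5 immunoproteasome and activator genes, Psmb10, a catalytic subunit, and Psme2, an activator subunit, rose in both genotypes, and Psme1, the partner of Psme2, fell in both. Psmb10 averaged 10.9 CPM in input WT and 62.8 CPM in TRAP WT, with log2 differences of 2.52 ± 0.21 (SE) in WT and 2.41 ± 0.23 (SE) in KO. Psme2 had 1.71 ± 0.18 (SE) in WT and 1.74 ± 0.19 (SE) in KO, and Psme1 −1.39 ± 0.17 (SE) and −1.22 ± 0.16 (SE). Psmb8, another catalytic subunit, fell in WT, with −2.01 ± 0.49 (SE), from a mean of 0.89 CPM in input WT. The constitutive counterparts Psmb5, Psmb6 and Psmb7 rose by 1.21 to 1.49 in WT and 1.31 to 1.44 in KO, and Psme4, a nuclear activator, fell. Of the 5 constitutive genes, 4 rose and 1 fell in each genotype.

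Interferon-stimulated genes were mostly lower in TRAP: 14 of 20 fell and 2 rose in WT, and 13 fell and 2 rose in KO, with medians of −1.35 and −1.19 in log2. Of all genes, 38.5% fell in WT and 39.6% in KO. Markers of other cells fell in the same libraries, microglia 9 of 10 in each genotype, with medians of −1.96 in WT and −1.86 in KO, and endothelium 10 of 10 in WT and 6 of 10 in KO, with medians of −1.81 and −1.10, and their part was not tested. The interferon-stimulated genes that rose were Ifih1, a sensor of double-stranded RNA, and Ifit2. Irf7, a master interferon regulator, had −2.13 ± 0.39 (SE) in WT and −2.03 ± 0.41 (SE) in KO, from a mean of 1.00 CPM in input WT. With library totals 16 fell and 0 rose in each genotype. Of 12 tested regulators of class I genes, 9 fell and 1 rose in each genotype. Creb1 had −1.76 ± 0.13 (SE) in WT, Rela, a subunit of NF-kappa B, −0.80 ± 0.16 (SE), and Rfxank, a subunit of the RFX complex that binds class I and class II promoters, 0.39 ± 0.10 (SE).

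Among 7 tested class II presentation genes, H2-Ab1, H2-DMa and H2-Eb1 rose in both genotypes and Ciita, the class II transactivator, fell in both. The list gave 3 higher and 1 lower in WT, 57.1% called, and 3 higher and 2 lower in KO, 71.4% called. Over all genes 75.5% and 75.9% were called. Fitted levels were lower in TRAP for 4 of the 7 in each genotype, with medians of −0.43 in WT and −0.58 in KO. With library totals the list gave 2 higher and 4 lower in WT and 2 higher and 3 lower in KO. H2-Ab1 had 2.30 ± 0.42 (SE) in WT and 3.36 ± 0.43 (SE) in KO. Without input KO replicate 3, 3 of the 7 passed in KO in place of 5. H2-Eb1 no longer passed with library totals, with 0.50 in WT and 0.24 in KO. Of the receptors that read class I, 2 of 7 were tested, and Cd247, the zeta chain of the T cell receptor complex, rose by 2.48 ± 0.35 (SE) in WT and 1.16 ± 0.33 (SE) in KO. Levels were low, the 7 receptor genes together summing to 0.61 to 1.54 CPM in input and 1.17 to 2.78 CPM in TRAP. With library totals the receptors gave 1 higher and 1 lower call in WT. In KO they then gave 0 higher and 1 lower, so Cd247 was no longer called higher there. Without input KO replicate 3 the KO call of Cd247 was lost. Both tested receptor genes passed in KO without TRAP KO replicate 3 and in WT without input WT replicate 4. Cd3e, another chain of that complex, was at 0 in all TRAP libraries.

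**Figure D5:**
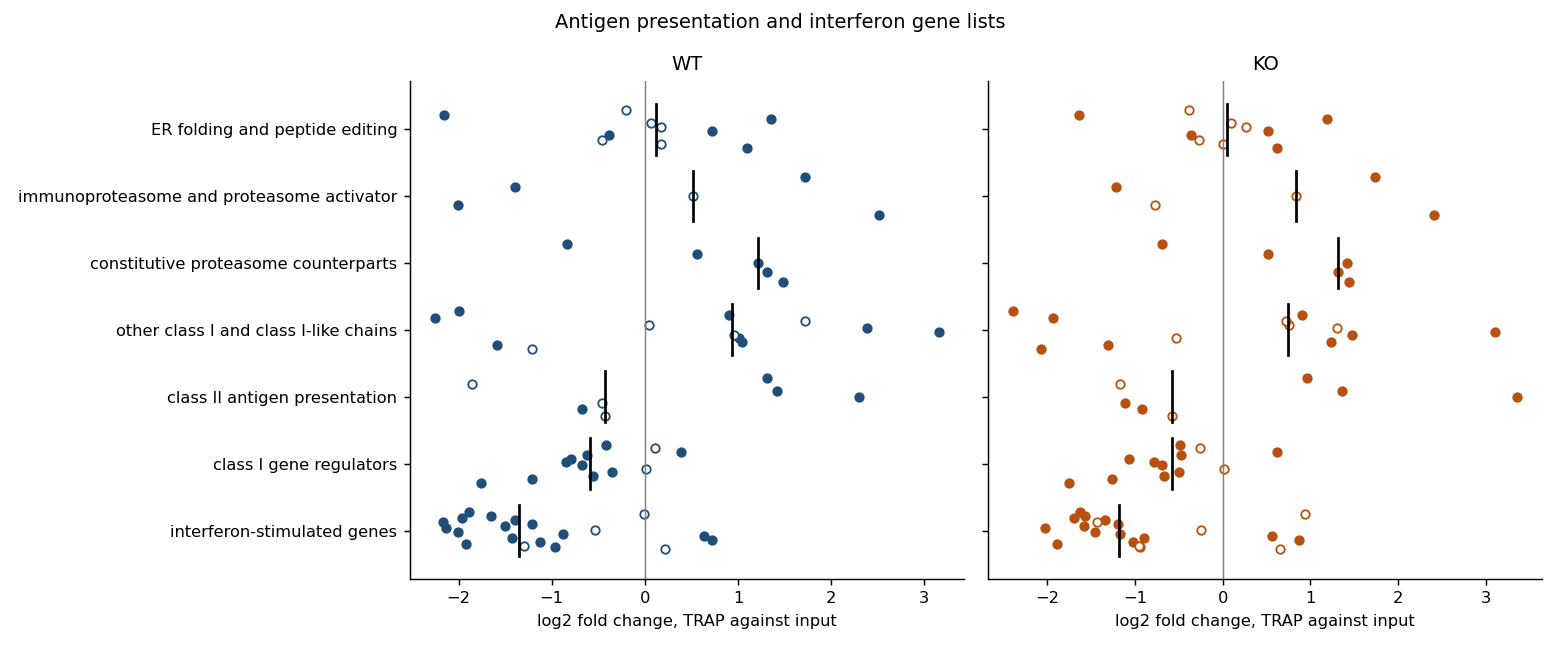
Log2 fold change of TRAP against input for each tested gene of 7 lists, in WT (left) and KO (right); filled points have an adjusted p under 0.05 and black bars are list medians. Interferon-stimulated genes have medians of −1.35 in WT and −1.19 in KO, and constitutive proteasome genes lie to the right of 0 except Psme4.

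None of these 8 lists held a gene that passed for genotype by edgeR in either fraction. DESeq2 called 1 further class I chain, H2-T24, and 1 regulator, Creb1, in input. H2-T24 had an edgeR log2 fold change of −1.601 for KO against WT in input, with an adjusted p of 0.233, and it passed without input KO replicate 2. In input, 18 of the 20 interferon-stimulated genes had lower fitted levels in KO and 10 (50.0%) had an unadjusted p under 0.05, against 13.7% of all genes. Their summed level ranged from 69.1 to 84.2 CPM in input KO and from 74.2 to 96.0 CPM in input WT, so the groups overlapped. Without sex as a covariate the 10 became 1 (5.0%, against 1758 of all 15997 genes). It was 6 (30.0%) without input WT replicate 1, against 15.8% of all genes, and without input KO replicate 3, against 5.86%. Endothelium markers were lower in the same libraries, 10 of 10 in fitted level, with sums of 17.5 to 25.6 CPM in input KO and 26.8 to 38.5 CPM in input WT. Without input KO replicate 3, 0 of the 10 endothelium markers had an unadjusted p under 0.05, in place of 6. The fit without input KO replicate 3 compares females only, with WT replicate 1 as the sole WT library. The part of endothelium RNA in the interferon genes was not tested.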

How the data were processed

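Genes were counted by the authors in 14 RNA sequencing libraries, and the deposited values are whole-number counts per Entrez gene, with no normalization, from the values. Salmon 0.8.2 and the build mm10 are named in the submitters' processing notes. The counting step, annotation and strand setting, and whether the counts were rounded from estimates, are not given in the sources used here. RefSeq GRCm38.p6 gave symbols for 24045 of 24100 genes.

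Genotype was tested within each fraction (7 libraries each) and TRAP against input and the interaction in all 14, with edgeR 4.0.16 in R 4.3.3 (quasi-likelihood test, two-sided, TMM factors, filterByExpr, sex as covariate, Benjamini-Hochberg threshold 0.05). SE was derived from the log2 fold change and its F statistic. CPM use TMM factors over all libraries. DESeq2 1.42.0 was an alternative. A count of 3, taken as the floor, was 0.044 to 0.205 CPM. Within groups, chi-square per degree of freedom between libraries was 8.63 or more, so none was counted as a duplicate. Transcript lengths are the longest in GENCODE M21. The fits were also run on simulated counts with a fixed spread in each fraction and no library effects of transcript length. The outcome is not reported here and backs none of the results.

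The members and lists were chosen with earlier results of these data known. Genes named are the 10 members, Astn2, per list up to 4 passing genes in each direction with the largest change and otherwise up to 2 of highest CPM, in the chromosome 17 span up to 5 of smallest unadjusted p, and the 5 genes most like B2m and H2-T10 (mean of at least 1 CPM in each fraction). H2-T24 and Creb1 in the DESeq2 result were named after their values were seen.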

Additional observations from a re-analysis of the deposited data

How the results depend on the processing

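Alternatives were DESeq2 size factors, library totals, 2 other filters on low counts, DESeq2's Wald test, no sex covariate, 1 fit of all 14 libraries, a replicate block, each library left out in turn and, chosen after seeing the data, offsets for transcript length. For genotype in TRAP, 1 gene passed, 3 with the Wald test, 2 in the fit of all 14 libraries and 1 to 2 with single libraries left out. For genotype in input, 3 genes passed, and 5 with size factors, 23 with no filter, 292 with the Wald test, 8 with length offsets and 1 to 158 with single libraries left out, the 158 without input KO replicate 2. The members passing there were 0, with 2 by the Wald test and 0 to 2 with libraries left out. The interaction had 0 genes and 1 by the Wald test. The causes were not tested.

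Log2 differences that changed sign under library totals were, in WT, −0.81 for B2m, −0.17 for H2-K1, −0.70 for H2-Q4, −0.40 for Tap1, −0.44 for Rfxank, −0.094 for Ifih1, −0.19 for Ifit2 and −0.35 for Astn2, and in KO −0.36 for H2-Q4, −0.12 for Calr, −0.12 for Rfxank and −0.18 for Ifit2. With a mean count of at least 50, B2m had −0.20 and H2-Q4 −0.089 in WT, and with length offsets B2m had −0.67 in WT. Without the sex covariate H2-D1 had −0.13 for genotype in TRAP and Tap1 0.014 in input. Leaving out single libraries changed the sign of further values. Genotype in TRAP ranged from −0.43 to 0.43 for H2-D1 and −0.18 to 0.38 for Tapbp. Genotype in input ranged from −0.36 to 0.92 for H2-Q4, −0.33 to 0.11 for Tap1 and −0.73 to 0.19 for Ifi27. TRAP against input in WT ranged from −0.11 to 0.11 for B2m, −0.18 to 0.30 for H2-Q4 and −0.015 to 0.63 for Tap1. The interaction ranged from −0.63 to 0.082 for H2-D1, −0.10 to 1.37 for H2-T22, −0.064 to 0.55 for H2-Q4, −0.14 to 0.74 for Tap2 and −0.0086 to 0.64 for Tapbp. The 10 calls among the 8 tested members for TRAP against input passed in the same direction in 206 of 220 alternative values, 10 of the 14 exceptions being H2-T22 in KO.

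In deviations from group means, libraries with the same replicate number correlated from −0.09 to 0.15 between KO and WT and from −0.04 to 0.23 between input and TRAP, where 4 of 6 pairs exceeded 0.1, so the numbers were not taken as pairs. The range of the H2-T10 share matched by number between fractions except for KO replicate 3, the pair with the correlation of −0.04. TRAP against input was tested with the 14 libraries as independent, so animals shared between fractions, if any, were not modelled. With the replicate block, 1 gene passed for genotype in TRAP and 1 in input, H2-D1 had −0.0414 for genotype in TRAP, H2-T10 had 1.37 and H2-T22 −1.96 for genotype in input, H2-T10 had 1.31 for TRAP against input in WT, and H2-T22 passed for TRAP against input in WT. Counting error limits the levels below 50 counts, which held for Tap1 in 7 libraries, H2-T22 and H2-T23 in 4 each, H2-T10 in 2 and H2-K1 in 1.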
